A study of Mus musculus with 6 samples.

Results

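The collagen genes analysed here were 38 genes of the collagen superfamily, chosen by name out of 22359 protein-coding genes in the mm9 annotation. The window of a gene was its body plus 50 kb on either side. The genes were kept in 3 classes. The cartilage collagens were the 8 genes for types II, IX, X, XI and XXVII (Col2a1, Col9a1, Col9a2, Col9a3, Col10a1, Col11a1, Col11a2 and Col27a1). The fibrous collagens were the 6 genes for types I, III and V (Col1a1, Col1a2, Col3a1, Col5a1, Col5a2 and Col5a3), and 24 genes remained. On mm9, Col2a1 lies at chr15:97806033-97835155, Col9a1 at chr1:24184449-24259577, Col1a1 at chr11:94797538-94814356 and Col3a1 at chr1:45368383-45406551.

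Collagens are triple-helical proteins of the extracellular matrix. Type II collagen forms the fibrils of cartilage, together with type XI inside the fibril and type IX on its surface, while type X is a product of hypertrophic chondrocytes. Types I, III and V form the fibrils of skin, tendon, bone and other connective tissue and are made by fibroblasts. Sox9 is a transcription factor required for cartilage formation and a known activator of the type II, IX and XI genes, and Bapx1 (Nkx3.2) is a homeobox factor of the axial skeleton.

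The data were chromatin immunoprecipitation followed by sequencing (ChIP-seq) from 6 libraries, 1 per condition. Vertebral columns of E12.5 CD1 embryos gave 4 of them: anti S-peptide pulldown from embryos whose own Bapx1 locus carries an S-peptide tag, the same antibody on wildtype embryos, anti-Sox9 pulldown from wildtype embryos, and IgG as its control. The embryos were pooled, and for the Sox9 and IgG pair the labels also name the limb as tissue. NIH3T3 cells, a mouse fibroblast line, gave the others: cells that overexpressed V5-tagged Bapx1, and a V5 control described both as empty pcDNA6 vector and as wild type 3T3. The controls are titled input, but are pulldowns with an antibody. Since each condition had 1 library, the spread between replicates is unknown and no p-value is given for a comparison. The p of a single peak, where given, is that of the authors' peak list and does not cover this spread. All intervals are at 95%, exact, and cover counting error only.

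The libraries held between 9124697 and 24855032 tags of 35 bp, and the peak lists 2815 peaks for Bapx1 in the vertebral column, 23205 for V5-Bapx1 in NIH3T3 cells and 3722 for Sox9. Since the Sox9 and IgG positions did not match mm9, they were moved by the displacement of their tag pattern against that of the Bapx1 pair. Of the Sox9 peaks 3572 (96.0%) could be placed, with a median absolute displacement of 93450 bp. Among them 35.8% (34.3 to 37.4) held the Sox motif (on the plus or minus strand, CAAAG or CAATG after any pair of A or T) within 50 bp of the summit, compared to 13.8% of flanks 500 bp away and 15.7% of the same summits at their deposited coordinates. Of the collagen windows that of Col15a1 could not be placed at all, and those of Col4a1, Col5a1, Col4a2, Col11a2, Col25a1 and Col22a1 were placed over 46.5%, 55.7%, 58.0%, 78.1%, 84.6% and 92.6% of their length. Those of Col8a1 and Col9a2 were placed over 97.8% and 99.1%, and the others in full. The 150 peaks with no clear displacement were left out.

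The sequences around 8 summits are printed first, since the overlaps between lists, the motif matches and the strongest fibrous peaks described below refer to them. Each is the plus strand of mm9 from 50 bp before to 50 bp after the summit, with matches to the Bapx1 motif (TGAGTG or TAAGTG, on either strand, so that CACTCA and CACTTA are also matches) in capitals. The first 5 are summits of Bapx1 peaks in the vertebral column that overlapped a Sox9 peak. They lie upstream of Col27a1 (chr4:62847437-62847537), upstream of Col2a1 (chr15:97863919-97864019) and within introns of Col9a1 (chr1:24203083-24203183), Col9a3 (chr2:180346807-180346907) and Col4a4 (chr1:82473574-82473674). The sixth is a summit in an intron of Col8a1 (chr16:57647536-57647636), where both Bapx1 lists had a peak. The last 2 are the strongest NIH3T3 peaks at fibrous collagens, upstream of Col3a1 (chr1:45337933-45338033) and in an intron of Col5a2 (chr1:45439363-45439463).
Col27a1: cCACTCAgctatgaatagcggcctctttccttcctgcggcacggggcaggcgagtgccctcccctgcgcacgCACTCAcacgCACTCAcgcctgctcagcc
Col2a1: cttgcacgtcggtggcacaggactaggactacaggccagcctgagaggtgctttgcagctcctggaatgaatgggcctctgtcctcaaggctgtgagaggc
Col9a1: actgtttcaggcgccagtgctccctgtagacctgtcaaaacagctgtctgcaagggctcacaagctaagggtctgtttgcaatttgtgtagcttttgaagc
Col9a3: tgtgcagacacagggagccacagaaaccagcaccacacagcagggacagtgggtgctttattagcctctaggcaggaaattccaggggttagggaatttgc
Col4a4: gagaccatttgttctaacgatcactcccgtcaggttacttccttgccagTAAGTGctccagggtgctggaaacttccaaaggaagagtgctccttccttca
Col8a1: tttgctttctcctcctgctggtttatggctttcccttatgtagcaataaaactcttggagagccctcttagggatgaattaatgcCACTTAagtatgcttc
Col3a1: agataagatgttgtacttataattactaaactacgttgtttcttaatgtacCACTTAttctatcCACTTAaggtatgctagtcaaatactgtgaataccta
Col5a2: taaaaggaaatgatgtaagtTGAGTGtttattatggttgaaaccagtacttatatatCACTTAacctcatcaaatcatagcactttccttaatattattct

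In the vertebral column, 19 Bapx1 peaks had their summit in the collagen windows, where 9.87 were expected from the wildtype control tags, a ratio of 1.92 (1.16 to 3.01). Counting only peaks with a p of at most 1e-10 left 6 peaks, and the interval then included 1 (2.57, 0.942 to 5.59). Over all protein-coding genes the ratio was 1.09 (1.04 to 1.13). At least 1 peak lay in the window of 13 of the 38 genes (34.2%), compared to 16.1% of all genes. Collagen genes are long, so 8.83 of them were expected to have a peak. The cartilage collagens carried 6 of the peaks against 1.67 expected, a ratio of 3.60 (1.32 to 7.84), and 5 of the 8 genes had one. Of these, Col2a1, Col9a1, Col9a3 and Col27a1 had 1 peak each and Col11a2 had 2, whereas no peak was called at Col9a2, Col10a1 and Col11a1. Among the 6 peaks of the cartilage class only that of Col9a3 had a p of at most 1e-10. At the fibrous collagens the only peak was at Col1a2, against 1.26 expected, a ratio of 0.795 (0.0201 to 4.43). The ratio for cartilage over fibrous collagens was 4.53, but its interval of 0.549 to 208 did not exclude 1, because a single fibrous peak was counted. The remaining 12 peaks were at other collagens, where 7.06 were expected (1.70, 0.878 to 2.97): 3 at Col23a1, 2 each at Col4a4, Col8a1 and Col25a1, and 1 each at Col6a1, Col8a2 and Col14a1.

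**Figure D1:**
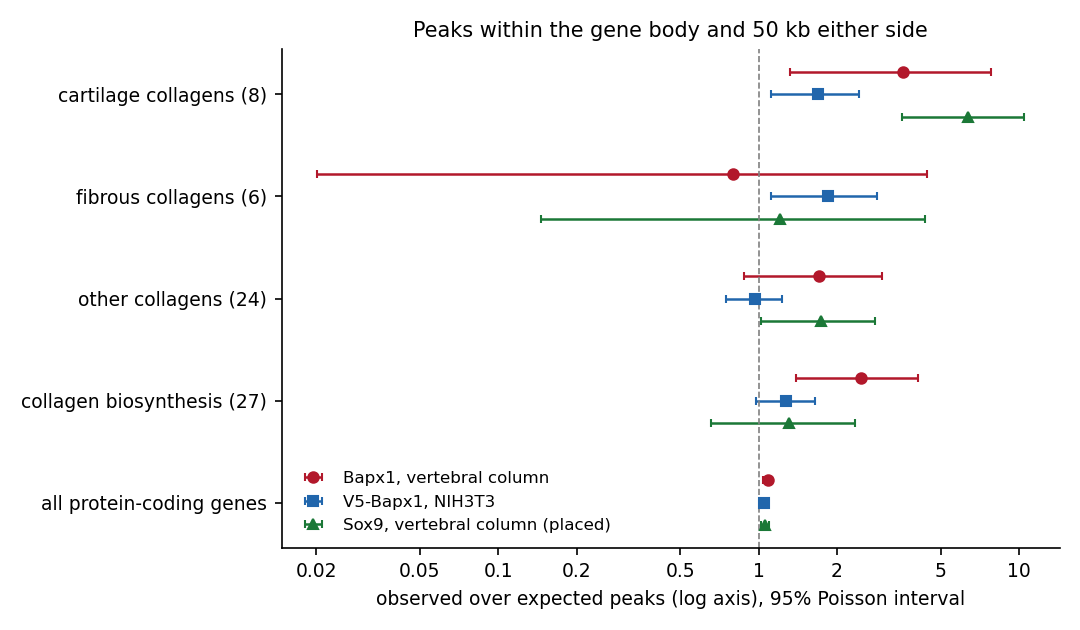
Observed over expected peaks (x axis, logarithmic) in the windows of each gene class for the 3 peak lists, with exact 95% Poisson intervals as bars. The cartilage collagens lie above 1 in all 3 lists, with Sox9 highest at 6.38, while at the fibrous collagens only the NIH3T3 list, at 1.84, has an interval above 1.

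The Bapx1 peaks at cartilage collagens held between 12 and 25 Bapx1 tags. Distances below are to the transcription start site (TSS) of the gene's main transcript, that of the longest coding sequence. Another annotated TSS of the same gene lay within 5 kb of 3 of the 6 peaks, 723 bp away at Col9a1, 1961 bp at Col9a3 and 3154 bp at Col11a2. The peak of Col9a3, which encodes a chain of type IX collagen, was the strongest. It covered chr2:180346609-180346950 in an intron 13.9 kb into the gene and held 25 Bapx1 and 4 control tags (ratio 5.21). The peak of Col9a1, another type IX chain, at chr1:24203045-24203329, 18.7 kb into the gene, held 20 and 2 tags (8.33). Their −log10 p was 10.6 and 7.65, with that of Col27a1 between them.

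At Col2a1, the type II collagen gene, the peak was intergenic, 28.8 kb upstream of the TSS (chr15:97863839-97864042), with 14 Bapx1 and 3 control tags (3.89). The peak of Col27a1, a fibrillar collagen of cartilage, was likewise 29.0 kb upstream (chr4:62847311-62847645), with 25 and 7 tags (2.97). The 2 distances were similar, but the Col27a1 site was nearer to the TSS of Kif12, 14322 bp away. The −log10 p of the Col2a1 peak was 5.18, close to the cutoff of the list.

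Of the 2 peaks of Col11a2, a type XI chain, 1 was at chr17:34202395-34202643 in an intron near the end of the gene, with 14 and 3 tags. The other lay downstream of the gene at chr17:34238463-34238635, 9167 bp from the TSS of H2-Oa, with 12 and 3 tags. The single peak at a fibrous collagen lay 21.6 kb upstream of Col1a2, a type I chain (chr6:4433720-4434010), with 17 and 1 tags, a ratio of 14.2. None of these peaks held more than 25 Bapx1 tags, and no peak of the 19 lay within 5 kb of the main TSS of its collagen gene, while those of Col9a1, Col9a3, Col11a2 and, at 948 bp, Col8a2 lay within 5 kb of another annotated TSS of theirs.

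The strongest Bapx1 peaks at collagen genes of the vertebral column belonged to other types. At Col8a1, which encodes a short-chain collagen of endothelial and corneal matrix, a peak at chr16:57647381-57647804 held 48 Bapx1 and 6 control tags, with a −log10 p of 26.9. At Col23a1, a transmembrane collagen, the peak at chr11:51282947-51283424 held 70 and 10 tags (−log10 p of 21.9). At Col8a2, the partner chain of Col8a1, that at chr4:125978508-125979165 held 59 and 12 tags (21.2). All 3 were intronic. The false discovery rate (FDR), which MACS estimates by swapping ChIP and control, was at least 20.7% for each of the 19 peaks and thus passed 5% for none of them, as for none of the 2815 peaks of the list.

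For Sox9, 32 placed peaks had their summit in the collagen windows against 13.6 expected from the placed IgG tags, a ratio of 2.35 (1.61 to 3.32), compared to 1.06 (1.02 to 1.10) over all protein-coding genes. Of the 37 collagen genes with a placed window 20 had a peak (54.1%), compared to 18.1% of all genes with one, and 11.3 were expected. The cartilage collagens carried 15 of the 32 peaks against 2.35 expected (6.38, 3.57 to 10.5), and the fibrous collagens 2 against 1.65 (1.21, 0.146 to 4.37). Cartilage over fibrous collagens gave a ratio of 5.28 (1.23 to 47.6). This interval reached below 1 when only peaks with an FDR of at most 5% were counted, which left 2 and 1 peaks (1.72, 0.0896 to 102). It also did so with 20 kb windows (4.04, 0.900 to 37.2), at a p of at most 1e-10 (6.91, 0.957 to 303) and at the deposited coordinates (3.09, 0.589 to 30.5). The other collagens gave 17 against 9.75 (1.74, 1.02 to 2.79), with 2 peaks inside Col9a1 that also lie in the window of Col19a1 counted for both classes.

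Sox9 peaks clustered at the type IX genes. Col9a3 had 4 of them within the gene, at chr2:180333233-180333567 with 26 Sox9 and 2 IgG tags, chr2:180335455-180335762 with 28 and 3, chr2:180339477-180339950 with 32 and 10, and chr2:180346647-180347001 with 18 and 4. The first was 419 bp from the TSS. Col9a1 had 3, at chr1:24202722-24203278 with 44 and 6 tags, chr1:24228568-24228832 with 12 and 1, and chr1:24237261-24237753 with 39 and 6. Col9a2 had 2 close to its TSS, at chr4:120712493-120712810 with 15 and 3 tags and chr4:120713540-120714286 with 34 and 7. All 3 type IX genes thus had called Sox9 peaks within the gene body, 9 in all. The peaks were called on Sox9 against IgG, so the excess of Sox9 tags in them follows from the call. Only the Col9a1 peaks at chr1:24202722-24203278 and chr1:24237261-24237753 had an FDR of at most 5% (1.44% and 3.33%). At the remaining type IX peaks the FDR was at least 5.85%, the value at chr2:180335455-180335762 of Col9a3.

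Col2a1 had 2 Sox9 peaks, both upstream of the gene, at chr15:97863691-97864221 with 41 and 8 tags and at chr15:97857897-97858267 with 20 and 3. Neither was in the gene itself. Col27a1 had 1 upstream, at chr4:62847156-62847759 with 34 and 9 tags, and 1 in an intron, at chr4:62889922-62890418 with 24 and 2. The 2 peaks of Col11a1, a type XI chain, held the fewest Sox9 tags of the class: chr3:113731266-113731500, 2115 bp before the TSS, with 10 and 2 tags, and chr3:113756282-113756504 with 9 and 1. No Sox9 peak was placed at Col10a1, or at Col11a2, of which 78.1% of the window was placed.

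**Figure D2:**
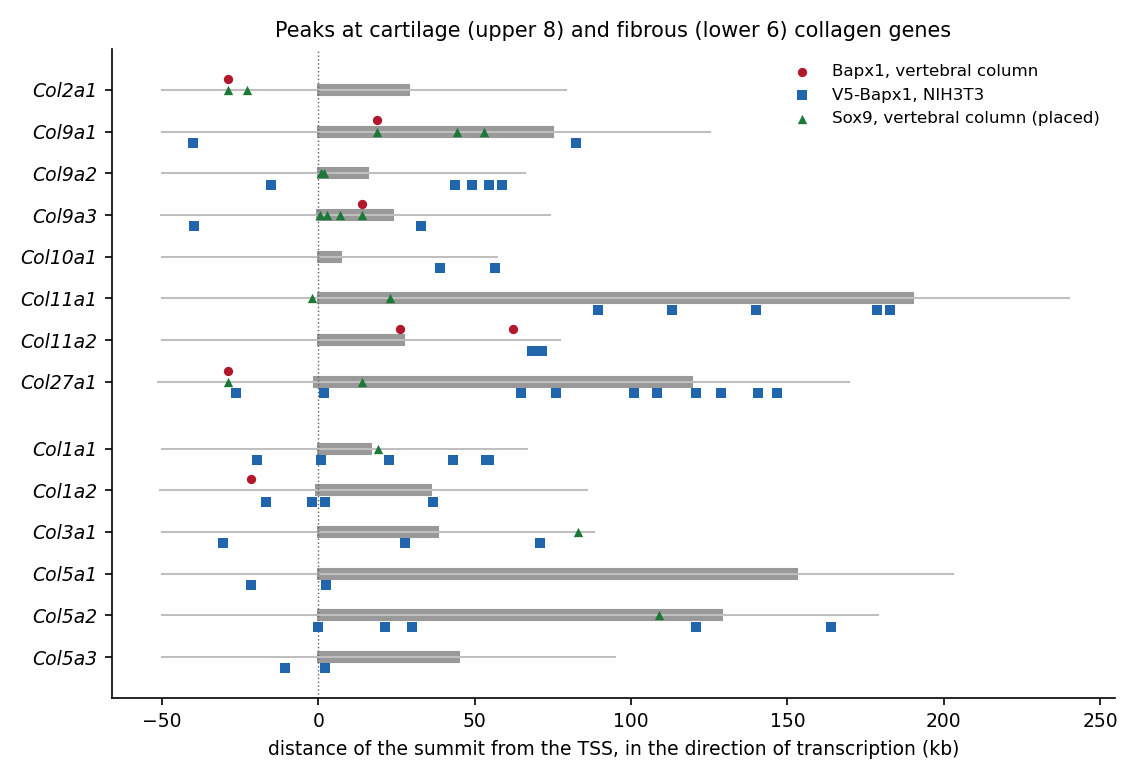
Summits of the 3 peak lists (symbols) along the windows of the 14 cartilage and fibrous collagen genes, as distance from the TSS in kb in the direction of transcription. Thick bars are gene bodies and thin lines the windows; Bapx1 and Sox9 symbols coincide at Col2a1, Col9a1, Col9a3 and Col27a1, and NIH3T3 symbols are absent at Col2a1.

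The Sox9 peaks of highest significance at collagen genes lay outside the cartilage class. The peak 19.1 kb downstream of the TSS of Col1a1, a type I chain, just beyond the gene (chr11:94816416-94816853), held 71 Sox9 and 4 IgG tags, a ratio of 18.5. The other fibrous peak lay in an intron of Col5a2, within the window of Col3a1 as well (chr1:45451165-45451462), with 15 and 3 tags. Among the remaining types, the peak in an intron of Col4a4, a basement membrane chain (chr1:82473326-82473730), held 71 and 6 tags. The one beyond the 3' end of Col4a1, also of basement membranes (chr8:11165497-11166110), held 76 and 3, and the one in an intron of Col16a1 (chr4:129733148-129733622) held 72 and 4. These 4 at Col1a1, Col4a4, Col4a1 and Col16a1 had an FDR of 0%, and 7 of the 32 peaks passed 5%.

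Of the remaining types, Col19a1 had 3 Sox9 peaks, 2 of them those it shared with Col9a1. Col4a2, Col14a1, Col17a1 and Col23a1 had 2 each, and Col6a1, Col8a1 and Col25a1 1 each. None was placed at Col1a2, Col5a1, Col5a3 and 12 of the remaining types.

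At 4 of the 6 Bapx1 peaks of cartilage collagens the Sox9 library was enriched as well. Of the 19 Bapx1 peaks of the vertebral column 5 (26.3%, 9.15 to 51.2) overlapped a placed Sox9 peak by at least 1 bp, compared to 244 of 2815 (8.67%) in the whole list. Of the 6 at cartilage collagens 4 did (66.7%, 22.3 to 95.7), at Col27a1, Col2a1, Col9a1 and Col9a3. Their summits were 66, 29, 94 and 10 bp apart. The fifth was at Col4a4, with summits 110 bp apart. Since Sox9 peaks were placed by the tags of the Bapx1 pair, these distances are not independent of the placement. The paper looked for overlapping sites of both factors, in its section on genes regulated by both, and reported none at this stage. The overlaps here were counted after Sox9 peaks were moved, by a median of 93450 bp. They were not counted at the deposited coordinates, so they are not directly comparable with the paper's statement. From the side of Sox9, 4 of 15 peaks at cartilage collagens overlapped a Bapx1 peak (26.7%) and 1 of 15 at other collagens (6.67%), compared to 6.83% of all placed peaks.

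Tags under the peaks were also counted without regard to a call in the other list. Under the Bapx1 peaks of cartilage collagens lay 89 Sox9 and 25 IgG tags, a ratio of 3.71 (2.36 to 6.04), compared to 1.67 (1.63 to 1.71) under the 2779 Bapx1 peaks in regions where Sox9 could be placed. Under those of other collagens it was 2.29 (1.63 to 3.24), with 67 of the 114 Sox9 tags at the Col4a4 peak. Without that peak it was 1.07 (0.694 to 1.64), a value computed after seeing the data. Most of the 89 Sox9 tags lay at the 4 cartilage peaks that overlapped a called Sox9 peak. These held 29 Sox9 and 6 IgG tags at Col27a1, 21 and 3 at Col2a1, 19 and 4 at Col9a1, and 15 and 3 at Col9a3. At Col11a2 the Sox9 tags did not exceed IgG, with 4 and 7 at the intronic peak and 1 and 2 at the downstream peak. Conversely, the Sox9 peaks of cartilage collagens held 225 Bapx1 and 102 wildtype control tags (1.84, 1.45 to 2.35), compared to 1.44 (1.42 to 1.46) under all placed Sox9 peaks. At the 2 fibrous Sox9 peaks these were 17 and 8 tags (1.77, 0.724 to 4.74). Thus the pooled Sox9 ratio at Bapx1 sites of cartilage collagens lay above that of the whole list beyond counting error. It restates the overlaps with called Sox9 peaks and is no separate support for them. For the Bapx1 enrichment at Sox9 sites the intervals overlapped. In NIH3T3 cells V5-Bapx1 over V5 control was 0.969 (0.365 to 2.45) at the Bapx1 peaks of cartilage collagens, compared to 1.76 (1.70 to 1.81) at all Bapx1 peaks. At the Sox9 peaks of cartilage collagens it was 1.15 (0.724 to 1.82), compared to 1.21 (1.18 to 1.24) at all placed Sox9 peaks. Both collagen intervals included 1 and also the value of the whole list, so these sites could not be told apart from it. The interval at the Bapx1 peaks rested on 9 V5-Bapx1 and 13 control tags.

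**Figure D3:**
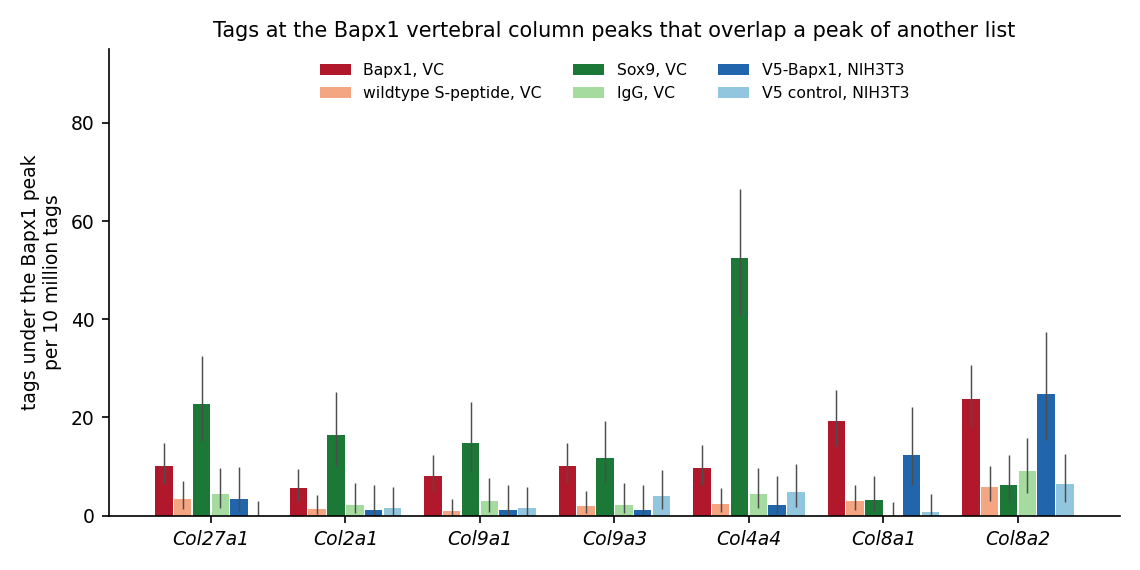
Tags under the 7 Bapx1 vertebral column peaks at collagen genes that overlapped a peak of another list, scaled to equal library size, with exact 95% Poisson intervals. The first 5 sites were drawn because they overlap a called Sox9 peak, and Col8a1 and Col8a2 because they overlap a called V5-Bapx1 peak. That Sox9 stands above IgG at the former and V5-Bapx1 above the V5 control at the latter follows from this choice.

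In NIH3T3 cells, whose list was longer, 114 V5-Bapx1 peaks lay in the collagen windows against 95.8 expected from the V5 control tags, a ratio of 1.19 (0.982 to 1.43), compared to 1.05 (1.04 to 1.07) over all protein-coding genes. A peak was present at 35 of the 38 genes (92.1%), compared to 67.1% of all genes, and at this peak density 33.0 were expected. The cartilage and fibrous classes had similar ratios in this list, with 28 peaks against 16.6 expected (1.69, 1.12 to 2.44) and 20 against 10.9 (1.84, 1.12 to 2.84). Their ratio was 0.916, with an interval of 0.498 to 1.72. The other collagens had 67 against 69.3 (0.966, 0.749 to 1.23).

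Col27a1 had the most peaks, 10 against 4.10 expected, followed by Col18a1 and Col25a1 with 7, against 4.29 and 7.0. Of the fibrous collagens Col1a1 had 6 against 1.76, Col5a2 had 5 against 2.13, Col1a2 had 4 against 1.81, Col3a1 had 3 against 1.30, and Col5a1 and Col5a3 had 2 each, against 3.24 and 1.36. The neighbours Col3a1 and Col5a2 share 2 of these peaks, which were counted once among the 20 of the class. Of the cartilage collagens Col9a2 and Col11a1 had 5 each, against 1.82 and 2.69, and Col9a1, Col9a3, Col10a1 and Col11a2 had 2 each. No peak was called at Col2a1, where 1.81 were expected, and none at Col13a1 and Col15a1, where 4.62 and 2.32 were expected. Of the other types Col8a2 had 6 peaks, Col12a1, Col23a1 and Col24a1 had 5, Col14a1 and Col16a1 had 4, and Col4a1, Col6a1 and Col22a1 had 3. Col4a2, Col4a4, Col7a1, Col8a1 and Col19a1 had 2 each, and Col4a3, Col4a5, Col4a6, Col6a2, Col6a3 and Col17a1 had 1 each. The peak of Col4a6 is that of Col4a5. Of the 2 at Col19a1, 1 is also a peak of Col9a1 and is counted in both classes. A peak in a window need not belong to the collagen gene. Outside the gene lay 18 of the 28 peaks of the cartilage class and 12 of the 20 of the fibrous class. Of the 10 at Col27a1 5 were in its introns, while 3 lay 395, 150 and 338 bp from the TSS of Orm1, Orm3 and Orm2. Of the 6 at Col1a1 only 1 was in the gene, and 2 lay 1194 and 215 bp from the TSS of Ppp1r9b. The density of the V5 control tags over that of the wildtype embryo control, ranged from 0.721 at Col4a5 to 1.49 at Col16a1 and was 1.44 at Col27a1, and the expected counts follow the V5 control.

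The strongest NIH3T3 peaks at collagen genes were at the neighbouring genes Col3a1 and Col5a2, which encode chains of types III and V. The peak 30.4 kb upstream of Col3a1 (chr1:45337761-45338328) held 42 V5-Bapx1 and 3 control tags, a ratio of 19.6. The peak in an intron of Col5a2 (chr1:45439243-45439677) held 40 and 6 tags (9.33). Both have 2 motif matches within 50 bp of the summit, as printed above. The third of the fibrous class, in an intron of Col5a3 1954 bp from its TSS (chr9:20616566-20617808), held 38 and 7 tags and had no match. In the vertebral column the same intervals of Col3a1 and Col5a2 held 7 Bapx1 and 2 control tags and 7 and 1 tags, and neither was called.

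Of the NIH3T3 peaks in the windows of cartilage collagens, the strongest was beyond the 3' end of Col9a1, between it and Col19a1 (chr1:24266409-24266915), with 27 and 4 tags. The next lay in introns of Zmpste24, a neighbour of Col9a2 (chr4:120755513-120755759, with 18 and 2 tags, and chr4:120766242-120766603, with 20 and 4). Thus none of the 3 was within a cartilage collagen gene. For the remaining types the leading peaks were in an intron of Col19a1 (chr1:24424095-24424765, 41 and 3 tags), in an intron of Col4a4 (chr1:82489235-82489452, 22 and 1 tags) and in an intron of Nhp2 in the window of Col23a1 (chr11:51434037-51434457, 29 and 3 tags).

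Of the 19 vertebral column peaks 2 (10.5%) overlapped an NIH3T3 peak, compared to 6.39% of the whole list. At Col8a1 the summits were 8 bp apart, and the interval held 48 Bapx1 and 6 control tags in the embryo and 11 V5-Bapx1 and 1 control tags in the cells. At Col8a2 the summits were 476 bp apart, with 59 and 12 tags in the embryo and 22 and 8 in the cells. None of the 114 NIH3T3 peaks overlapped a placed Sox9 peak, which allows a share of up to 2.63%, and in the whole list 0.293% did.

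The Bapx1 motif was searched in the collagen peaks. In the vertebral column 8 of 19 peaks (42.1%, 20.3 to 66.5) had a match within 50 bp of the summit, compared to 18.4% of their own flanks. In the whole list the share was 31.3%, with 10.5% of flanks. Of the 6 at cartilage collagens only that of Col27a1 had one, with 3 matches (16.7%, 0.421 to 64.1), and 7 of 12 had one at other collagens (58.3%, 27.7 to 84.8). These intervals overlap, and the difference was not tested. The matches closest to a summit were at Col25a1 (chr3:130009883-130010081), centred on it, and at Col4a4, 2 bp away. In NIH3T3 cells 61 of 114 peaks had a match (53.5%, 43.9 to 62.9), below the 64.4% of the whole list, with nearly the same share at cartilage (53.6%) and fibrous (50%) collagens. At the Sox9 peaks the Sox motif was found at 2 of 15 in the cartilage class (13.3%, 1.66 to 40.5), at both peaks of the fibrous class and at 7 of 15 at other collagens, and 35.8% of all placed peaks had one. Absence of a match says only that these letters are not within 50 bp of the summit.

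Within 1 kb of the TSS, tags were counted whether or not a peak was called. In the vertebral column Bapx1 over control was at least 1.5-fold at 4 of 38 collagen genes (10.5%), compared to 10.7% of 20750 genes with at least 20 tags. The members' median ratio was 1.13, compared to 1.02 over all genes. Col10a1 had the highest ratio, with 23 and 8 tags (2.39, 1.03 to 6.19), followed by Col11a1 with 33 and 17 (1.62, 0.875 to 3.10) and Col9a1 with 32 and 17 (1.57, 0.845 to 3.01). The lowest were Col9a2 with 26 and 40 tags (0.541, 0.317 to 0.909), Col18a1 with 25 and 35 (0.595, 0.341 to 1.02) and Col7a1 with 19 and 25 (0.633, 0.330 to 1.2). Pooled over the class, cartilage collagens gave 1.14 (0.955 to 1.37) and fibrous collagens 1.17 (0.959 to 1.44), and their ratio was 0.975 (0.741 to 1.28). Thus the classes could not be told apart at the TSS in the embryo.

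In NIH3T3 cells they differed. V5-Bapx1 over control was at least 1.5-fold at 18 of the 29 collagen genes with at least 20 tags (62.1%), compared to 49.9% of 14805 genes. Since ChIP tags count towards this minimum, genes with a high ratio pass it more easily, and these shares are given as a description. Without the minimum, a choice made after seeing the data, it was 20 of 38 (52.6%), compared to 39.8% of 21634 genes with at least 1 tag. All 6 fibrous collagens passed 1.5-fold, namely Col5a2 (38 and 7 tags, 7.6, 3.35 to 20.2), Col3a1 (19 and 6, 4.43, 1.70 to 13.6), Col1a2 (29 and 13, 3.12, 1.57 to 6.54), Col1a1 (44 and 21, 2.93, 1.71 to 5.19), Col5a3 (22 and 16, 1.92, 0.965 to 3.92) and Col5a1 (28 and 22, 1.78, 0.983 to 3.27). Col4a5, a basement membrane chain, had 24 and 6 tags (5.60, 2.23 to 16.7). The lowest ratios among genes with at least 20 tags were at Col2a1 with 5 and 17 tags (0.412, 0.119 to 1.16), Col9a1 with 5 and 16 (0.437, 0.125 to 1.25) and Col24a1 with 5 and 15 (0.466, 0.133 to 1.35). Pooled, the fibrous collagens had 180 and 85 tags (2.96, 2.28 to 3.88) and the cartilage collagens 75 and 110 (0.954, 0.702 to 1.29), and the ratio of cartilage to fibrous was 0.323 (0.214 to 0.485). The median over all genes was 1.5 with the minimum of 20 tags and 1.26 without it. The pooled interval of the fibrous collagens lay above both medians, and that of the cartilage collagens included the second. A pooled ratio and a median of ratios of single genes are unlike measures, and no pooled ratio over all genes was computed. Within the cartilage class, of the genes with at least 20 tags, Col10a1 (15 and 9 tags, 2.33, 0.956 to 6.04) and Col27a1 (24 and 22, 1.53, 0.820 to 2.86) had ratios above 1.5, as did Col11a1 with fewer tags (8 and 7, 1.60, 0.507 to 5.18). The intervals of Col5a3 and Col5a1 included 1. The TSS of Col4a1 and Col4a2 face each other and share nearly all their tags, and those of Col4a3 and Col4a4, and of Col4a5 and Col4a6, are close.

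**Figure D4:**
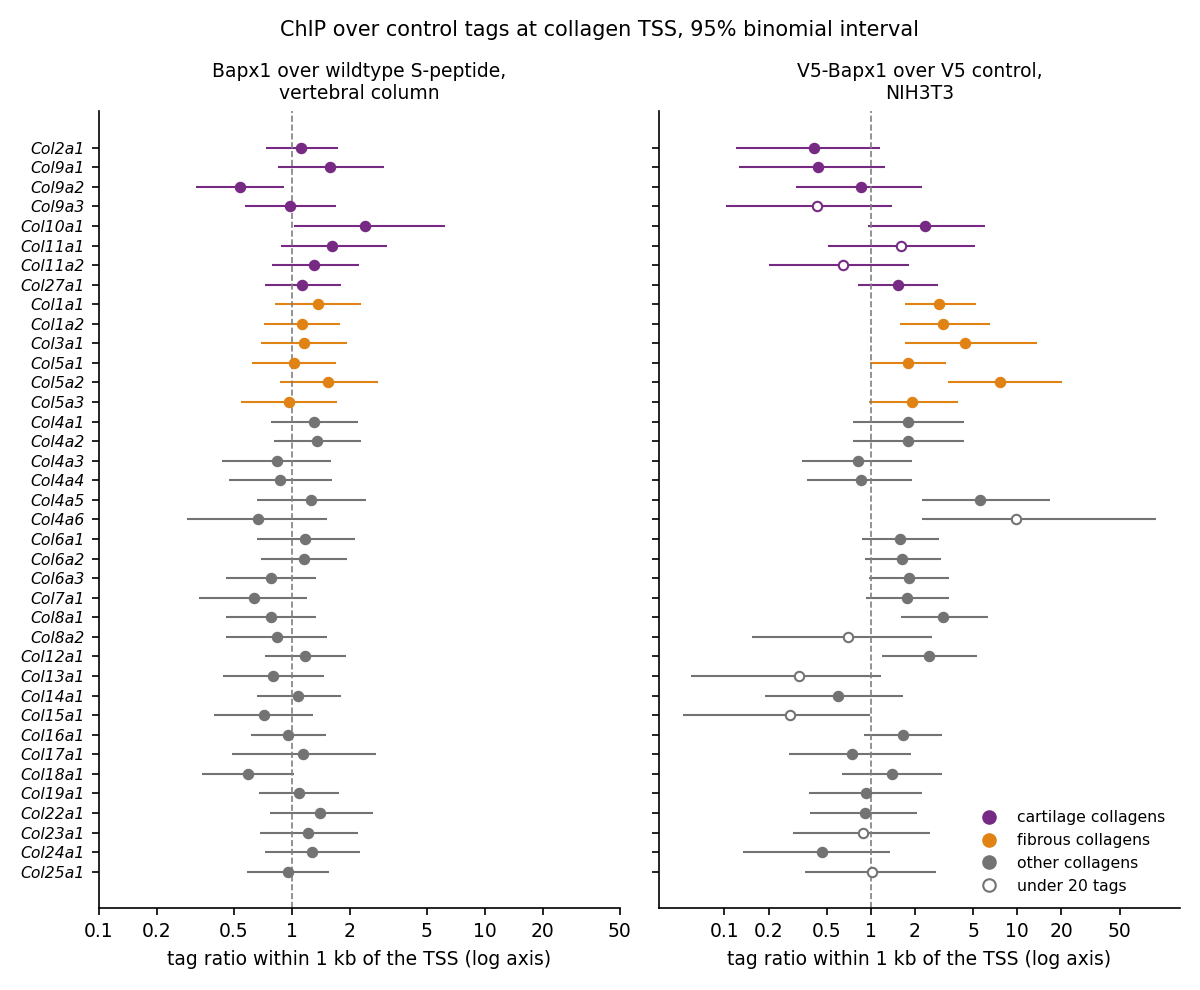
ChIP over control tags within 1 kb of the TSS (x axis, logarithmic) for each of the 38 collagen genes in the vertebral column (left) and in NIH3T3 cells (right), with exact 95% binomial intervals as bars. In NIH3T3 cells the 6 fibrous collagens lie between 1.78 and 7.6. Of the genes with at least 20 tags, the cartilage collagens lie between 0.412 (Col2a1) and 2.33 (Col10a1) and the other collagens between 0.466 and 5.60. Open circles have under 20 tags.

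Over whole windows the Bapx1 library of the vertebral column stayed close to its control at collagen genes. Its ratios lay between 0.928 (0.882 to 0.978) at Col13a1 and 1.10 (1.02 to 1.18) at Col1a2, with a median of 1.0 compared to 0.989 over all genes. Next to these extremes were Col3a1 (1.07) and Col25a1 (1.06) at the upper end and Col4a5 (0.941) and Col4a4 (0.958) at the lower. In NIH3T3 cells the fibrous collagens Col1a2 (1.47, 1.34 to 1.61), Col1a1 (1.37, 1.25 to 1.51) and Col3a1 (1.33, 1.19 to 1.48) were highest, and Col13a1 (0.788), Col2a1 (0.814) and Col5a1 (0.865) were lowest. The fibrous class had a median of 1.25, the cartilage class 1.03 and all genes 1.02. Col1a2 and Col3a1 were thus among the highest for Bapx1 in both sources, and Col13a1 was the lowest in both. The interval of Col3a1 in the vertebral column included 1 (0.985 to 1.16). In NIH3T3 cells Col4a5, which is not a fibrous collagen, was level with Col3a1 (1.33, 1.19 to 1.47). For Sox9 over IgG the window ratios were highest at Col3a1 (1.37, 1.21 to 1.55), Col11a1 (1.32, 1.2 to 1.44) and Col9a1 (1.29, 1.18 to 1.4), and lowest at Col7a1 (0.760, 0.696 to 0.829), Col8a2 (0.761, 0.696 to 0.832) and Col5a1 (0.770, 0.710 to 0.835).

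The enzymes and chaperones that make and process collagen were counted as the other genes of the pathway. Bapx1 peaks of the vertebral column numbered 15 against 6.06 expected in the windows of these 27 genes (2.48, 1.39 to 4.09). At least 1 lay at 10 of the genes (37.0%), where 5.36 genes (19.8%) were expected, compared to 16.1% of all genes. Loxl2, a lysyl oxidase that cross-links collagen, had 3. Loxl1 of the same family, the lysyl hydroxylase Plod2 and Serpinh1, the collagen chaperone of the endoplasmic reticulum, had 2 each. The prolyl hydroxylases P4ha3, Leprel1 and Leprel2, the glycosyltransferase Glt25d2 and the procollagen proteinases Bmp1 and Adamts14 had 1 each. Of Lox, P4ha1, P4ha2, P4hb, Plod1 and Crtap, none had a Bapx1 peak. In NIH3T3 cells 61 peaks were counted against 47.8 (1.28, 0.975 to 1.64) and for Sox9 11 against 8.38 (1.31, 0.655 to 2.35). Of these 3 intervals only that of Bapx1 in the embryo lay above 1, and with 100 kb either side of the genes it no longer did (1.64, 0.937 to 2.66). Differences between the lists were not tested.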

How the data were processed

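Tag positions and MACS peak lists were used as the authors deposited them, on mm9 per the labels. Per the paper's methods the authors called peaks with MACS, each ChIP library against its control, and per the file headers with p of at most 1e-05. The deposited lists hold, for each peak, its count of tags, a score from the logarithm of p, a ratio to the local background (fold enrichment) and an FDR in percent. The deposited positions are not normalized. No peaks were called again.

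Genes were the protein-coding genes of GENCODE on mm9 (NCBIM37). The collagen genes, their classes and the biosynthesis list were chosen with earlier results of these data known. Tags were counted by their centre, with 1 tag kept per position and strand, and libraries were scaled by their tags on the autosomes and sex chromosomes. Expected peaks were the peaks of a chromosome times the share of its control tags in the windows, merged where they overlap. For the displacement of the Sox9 pair, tags in bins of 50 bp (at most 3 kept) were correlated for each 200 kb window, and shifts as far as 8000 kb were searched. A shift was accepted if the best match exceeded the next by 1.5 times and the left and right parts of the window agreed within 100 bp, or if accepted neighbours within 300 kb agreed. At a TSS with 0 control tags 0.5 was used in counts over all genes. Intervals are exact Poisson for peak counts, exact binomial (Clopper-Pearson) for shares and conditional for ratios. A count of 0 was taken to allow 3.

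The methods were tested on simulated data. On chromosome 19, 75 of 300 positions of a library moved by known steps were accepted, all 75 within 50 bp of the known shift. The moved tags and the reference were random parts of the same pooled Bapx1 and wildtype tags. Matching between libraries of different antibodies was therefore not tested, nor was placement from accepted neighbours, used for 293 Sox9 peaks. A known density ratio of 3 over 200 genes was returned as 2.90 (2.57 to 3.29). The peaks of that test were drawn at positions of the wildtype control tags, which also gave the expectation. A value near 3 was therefore built in, and only the counting was tested. Whether control tags are a sound expectation was not tested. More peaks were drawn than the Bapx1 list holds, so the interval is narrower than those of the real counts. Named were all members by their counts, every peak at cartilage and fibrous collagens in the vertebral column lists, otherwise the 3 of smallest p per class and list, the 3 highest and 3 lowest tag ratios, and all overlapping pairs. Python 3.11.15, numpy 2.4.6, scipy 1.17.1 and pysam 0.24.0 were used. Alternatives were other windows, thresholds, expectations, scalings and tags.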

Additional observations from a re-analysis of the deposited data

Results flagged for a closer look

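The ratio of observed over expected peaks in cartilage collagens to that in fibrous collagens lay on opposite sides of 1 for Bapx1 in the embryo and in the cell line. It was 4.53 (0.549 to 208) in the vertebral column, from 6 and 1 peaks, and 0.916 (0.498 to 1.72) in NIH3T3 cells, from 28 and 20 peaks. Both intervals include 1, and the difference between the vertebral column and NIH3T3 cells was not tested.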

How the results depend on the processing

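No paired analysis was possible because each condition had 1 library, which also means that no replicate could be left out. Of 53 alternative values 44 stayed within the 95% interval of the reported value. The NIH3T3 collagen ratio of 1.19 became 1.48 (1.22 to 1.78) with window length in place of control tags, an interval that no longer included 1. With as many peaks as the Bapx1 list has, the ratio became 0.838, and cartilage over fibrous fell to 0.417 (0.0348 to 3.64). The last setting was chosen after seeing the data, as were an FDR of at most 5% in the NIH3T3 list, Sox9 peaks with a clear displacement of their own window, and other windows for the biosynthesis genes. At the deposited coordinates the Sox9 ratio of 2.35 became 1.60. Scaled to a median of 1 over all genes, the window tag ratio of 1.0 in the vertebral column became 1.02, that of 1.04 in NIH3T3 cells became 1.01, and the NIH3T3 ratio of 1.57 at the TSS became 1.05. Over gene bodies alone the NIH3T3 ratio was 0.992 (0.973 to 1.01), below 1. Within 100 bp of the summit 59.4% of Sox9 collagen peaks held the Sox motif, and 34.4% within 50 bp. The shares over all placed Sox9 peaks were 48.9% and 35.8%, and in flanks of the collagen peaks 23.4% and 7.81%. The causes of these changes were not tested. The Bapx1 contrast in the vertebral column could not be computed with 20 kb windows or at a p of at most 1e-10, since no fibrous peak remained, and no Bapx1 peak there had an FDR of at most 5%. The fibrous class held 1 Bapx1 and 2 Sox9 peaks in the embryo, and its intervals are wide.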
